A study of Homo sapiens with 8 samples.

Results

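Genes of the Polycomb repressive complexes, 10 in all, were examined for N6-methyladenosine (m6A) peaks in chromosome-associated RNA: EED, EZH1, EZH2, SUZ12, JARID2, AEBP2, MTF2, PHF19, BMI1 and RNF2. A peak belonged to a gene if it overlapped the RefSeq bounds of that gene (GRCh38) by at least 1 bp, and 35 of the 53021 peaks in the deposited lists did so, 18 in wild type and 17 in the METTL3 knockout. The cells were HEK293T, an established line from human embryonic kidney, in the parental form (wild type, genotype WT) or with the m6A writer METTL3 knocked out (METTL3-/-). Per the labels, both forms grew under the same conditions without further treatment, and RNA of the chromosome fraction, cleared of DNA and ribosomal RNA, was sequenced as input and after m6A immunoprecipitation (IP). There were 8 samples, with 2 replicates of IP and 2 of input for each genotype. The labels do not say whether the knockout is 1 clone, or whether replicates came from separate cultures.

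Polycomb proteins keep genes silent by marking histones. Polycomb repressive complex 2 (PRC2) methylates histone H3 to give the H3K27me3 mark, and Polycomb repressive complex 1 (PRC1) attaches ubiquitin to histone H2A. METTL3, together with METTL14, methylates adenosines in nascent RNA, often within the sequence GGAC, and PRC2 is itself known to bind RNA.

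Each genotype had 1 peak list and neither list carries values per replicate, so no difference below has a replicate check and no p-value is given. METTL3 itself held 2 peaks in the wild-type list and 0 in the knockout list. The fold printed for a peak is the authors' ratio of IP over local input at its summit. The number of IP reads stacked at the summit was recovered from that fold and the peak's p-value, as was the local input, which is the input reads the peak caller took as the local level. The median peak had 24 IP reads in the wild-type list and 31 in the knockout list. By inference the knockout IP was 1.17 times as deep on the plus strand. This depth ratio was not counted from the libraries. It comes from the most frequent low local input of each list and the fitted scale of its IP reads. Intervals of 95% are exact and cover counting error only, so the error of the depth ratio is outside them.

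Promoter windows are shown for the 3 genes whose own-strand peaks came closest to a listed start of transcription, to place those peaks on the sequence they cover or adjoin. Each runs from 250 bases before to 50 bases after the start, 5′ to 3′ on the strand of the gene, as RefSeq gives it for GRCh38.p14. The EED window is chr11:86244503-86244802 (plus strand), with the bases covered by a knockout peak in capitals. The window of AEBP2 is chr12:19440349-19440648 and that of BMI1 chr10:22320849-22321148, both on the plus strand, with GGAC in capitals.
EED: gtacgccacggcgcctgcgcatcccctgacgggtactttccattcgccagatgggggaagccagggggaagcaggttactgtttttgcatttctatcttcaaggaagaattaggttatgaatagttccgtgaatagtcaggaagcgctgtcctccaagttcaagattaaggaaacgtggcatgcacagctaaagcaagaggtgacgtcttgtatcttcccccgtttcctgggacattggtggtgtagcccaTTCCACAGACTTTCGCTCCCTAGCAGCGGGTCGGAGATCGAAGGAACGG
AEBP2: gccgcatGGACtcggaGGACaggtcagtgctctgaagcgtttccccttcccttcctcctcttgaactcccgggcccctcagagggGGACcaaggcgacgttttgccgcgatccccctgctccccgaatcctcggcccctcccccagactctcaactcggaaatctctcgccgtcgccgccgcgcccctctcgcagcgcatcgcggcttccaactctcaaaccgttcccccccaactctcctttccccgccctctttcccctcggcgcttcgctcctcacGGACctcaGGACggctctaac
BMI1: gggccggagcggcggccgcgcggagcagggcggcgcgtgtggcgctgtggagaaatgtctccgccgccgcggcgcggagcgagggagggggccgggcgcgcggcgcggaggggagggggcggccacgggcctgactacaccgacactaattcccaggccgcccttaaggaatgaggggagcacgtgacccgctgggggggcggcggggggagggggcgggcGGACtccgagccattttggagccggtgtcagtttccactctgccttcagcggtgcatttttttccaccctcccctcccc
The motif GGAC was searched on both strands, where its reverse complement reads GTCC, and matches of the 2 forms cannot overlap. On the strand of the gene the EED window held 1 match, the BMI1 window 1 and the AEBP2 window 5, and GTCC occurred once more in the EED window alone, for 2 matches on either strand. Of all 35116 such windows 66.3% held GGAC on the strand of the gene and 87.4% on either strand. A match describes the letters of the window and is not evidence of a methylated site.

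Peaks were found in 9 of the 10 genes, where 52.2% of all protein-coding genes had none in either list. Wild-type peaks lay in 7 genes, against 39.6% of all protein-coding genes, and knockout peaks in 8, against 34.8%. EED, JARID2, AEBP2, MTF2, BMI1 and RNF2 had peaks in both lists, PHF19 in wild type alone, EZH2 and SUZ12 in the knockout alone, and EZH1 in neither. Knockout peaks were also present in 6 of the 7 genes that had one in wild type, where 67.2% of such coding genes had both. Read the other way it was 6 of 8, where 76.4% of coding genes with knockout peaks had both. The members are longer than many genes, at 10.6 kb (BMI1) to 276 kb (JARID2), and among the 13224 coding genes in that range 34% had peaks in both lists. In that range 6564 genes had a wild-type peak, 5783 had a knockout peak and 40.7% had none in either list. Set against these, the members stand out less than against all coding genes. How strongly each gene was transcribed was not measured in these lists.

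**Figure D1:**
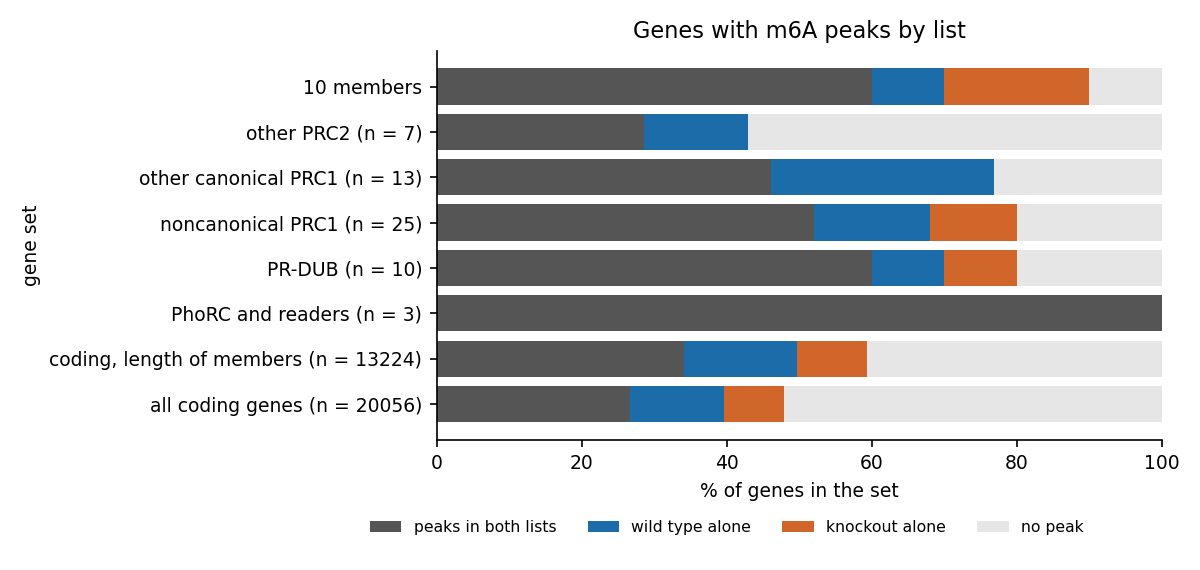
Share of genes (x axis, % of the set) with peaks in both lists, in wild type alone, in the knockout alone or in neither, for the 10 members, 5 sets of other Polycomb genes and protein-coding genes at large (y axis). Of the members 60% had peaks in both lists, against 34% of coding genes in their range of lengths and 26.6% of all coding genes.

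Peaks of the 2 lists were counted as a shared pair where they had 1 bp or more in common and the same strand. Shared peaks were few: 5 of the 18 wild-type peaks (27.8%, Clopper-Pearson interval 9.69 to 53.5) had such a partner, where 21.3% of all wild-type peaks in coding genes did. In the knockout list 5 of 17 had one (29.4%, 10.3 to 56.0), against 26.5% in coding genes. Both intervals include the share in coding genes. The 5 pairs lay in 5 genes, 1 each in EED, AEBP2, MTF2, BMI1 and RNF2, and JARID2 had 4 peaks in each list without a pair. The wild-type peaks with a partner rested on 28 to 282 IP reads (median 62) and those without on 14 to 56 (median 28). In the knockout the ranges were 38 to 343 (median 39) and 20 to 174 (median 33.5). The unpaired knockout peaks include 1 in JARID2 whose reads had 2 solutions, entered at the closer one, 31. Among all coding-gene peaks within the members' range of IP reads, 23.4% of wild-type and 31.9% of knockout peaks had a partner.

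**Figure D2:**
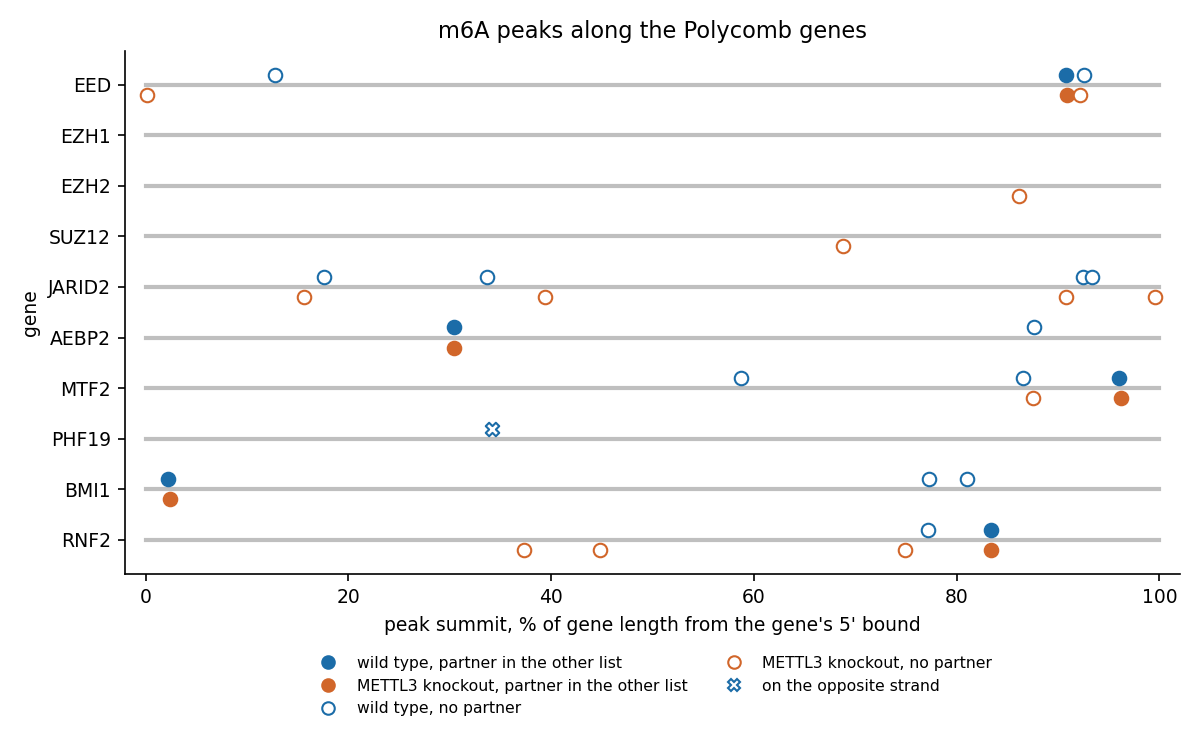
Position of every peak summit along the 10 genes (y axis) as % of gene length from the 5′ bound (x axis), with wild type above each line and the knockout below it. Filled points have a partner in the other list, open points have none, and the cross is the PHF19 peak on the opposite strand. The last 25% of the genes held 11 of the 17 own-strand wild-type summits and 8 of the 17 in the knockout. Over all peaks in 1 coding gene of any length the shares were 25.5% and 26%.

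Peaks lay on the strand of their gene in 17 of 18 cases in wild type and 17 of 17 in the knockout. Across the lists, 94.4% of wild-type and 93.8% of knockout peaks within exactly 1 coding gene did so. The downstream part of the genes held many of them, by a division of the gene length that was made after the peaks were listed. In wild type 11 of the 17 own-strand summits (64.7%, 38.3 to 85.8) lay in the last 25% of the gene, where 25.5% of all peaks in 1 coding gene lay. All 6 genes with an own-strand wild-type peak had at least 1 there. In the knockout it was 8 of 17 (47.1%, 23.0 to 72.2), against 26%, in 5 of 8 genes, and this interval includes the share over all peaks. Both shares over all peaks come from coding genes of every length and were not matched to the lengths of the members. BMI1 overlaps the readthrough gene COMMD3-BMI1 and so is outside the comparison set. Without it the counts were 9 of 14 and 8 of 16. Peaks of 1 gene share its transcripts and are not independent of each other.

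The core of PRC2 was represented mainly by EED, which holds the complex on chromatin by binding the methylated histone it has made. EED (chromosome 11, 86244753 to 86287615, 42.9 kb) had 3 peaks in each list. The strongest wild-type peak of any member was at 86283443 to 86283884, 3927 bp before the end of the gene at its summit, with a fold of 27.7 on 64 IP reads (49.3 to 81.7) over a local input of 0.44. It ranked 19 among the 29084 wild-type peaks by fold. Its knockout partner at 86283581 to 86283781 lay wholly within it, with the summits 14 bp apart. That partner had a fold of 8.73, above 74.3% of the knockout list, on 38 reads (26.9 to 52.2) over a local input of 1.2. At this place the knockout was lower in IP reads and higher in local input. Per unit of IP depth, knockout over wild-type reads came to 0.508 (0.331 to 0.771), an interval below 1, and 4.33% of the 5798 pairs across the genome had a lower ratio. Each IP was scaled to its own depth, so this ratio is relative to the rest of the IP. A loss common to all peaks would not show in it, here or at the pairs below.

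The other EED peaks had no partner. In the knockout a broad peak of 463 bp began at the first bases of the gene, at 86244754 to 86245216, with its summit 57 bp from the start. It had a fold of 15.2, the highest of any member in the knockout, on 55 reads (41.4 to 71.6). It covers 49 bases of the window shown above. The wild-type list held 0 peaks there, its nearest EED peak being at 86250193 to 86250392 with a fold of 7.14 on 16 reads. Each list had 1 more peak close by the shared one. The wild-type peak was at 86284337 to 86284536 (fold 6.56, 15 reads) and the knockout peak at 86284077 to 86284276 (fold 8.14, 21 reads), 60 bp apart. Both overlap LOC100289518, a pseudogene annotated within the bounds of EED.

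The genes of the catalytic subunits and the scaffold of PRC2 held 0 or 1 peak in each list. Such low counts are common, as 52.2% of all coding genes had no peak in either list. In the knockout EZH2 and SUZ12 had 1.30 and 1.56 peaks per 100 kb. The quartiles over coding genes with a peak in either list were 0 and 4.72. EZH1 (chromosome 17, 42700275 to 42745040) had 0 peaks in both lists. EZH2, the main H3K27 methyltransferase of dividing cells, had 0 wild-type peaks and 1 knockout peak, at 148817934 to 148818166 on chromosome 7 (minus strand). Its fold of 2.49 was the lowest of any member peak, with 0.551% of the knockout list lower, although it rested on 174 IP reads (149 to 202). The local input there was 30, the highest of the unpaired peaks. SUZ12, the scaffold on which PRC2 assembles, had 0 wild-type peaks and 1 knockout peak at 31980986 to 31981185 on chromosome 17, with a fold of 6.98 on 25 reads (16.2 to 36.9). A transcribed partial copy, SUZ12P1, lies on the same chromosome and held 3 peaks in each list, so reads of SUZ12 and its copy may have been placed in either.

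**Figure D3:**
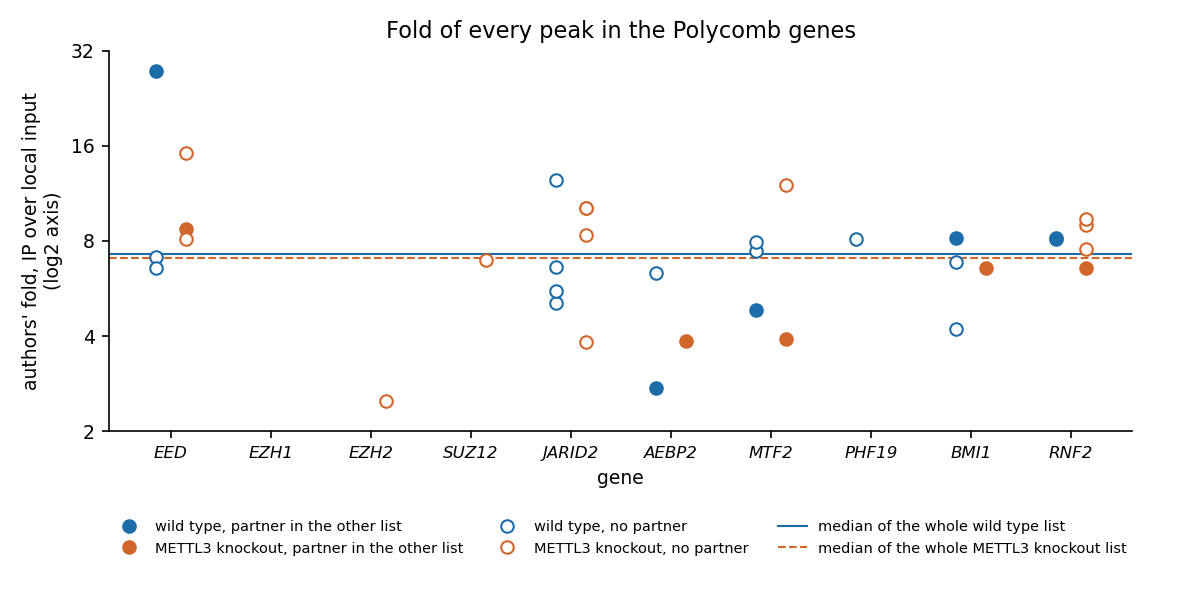
Fold of every peak (y axis, the authors' IP over local input, log2 axis) in the 10 genes (x axis), blue for wild type and orange for the knockout, filled where the peak has a partner. The lines mark the median fold of the whole lists, 7.29 in wild type and 7.06 in the knockout, and member peaks lie on both sides of them, from 2.73 to 27.7 in wild type and 2.49 to 15.2 in the knockout.

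The accessory subunits decide which form PRC2 takes and where it binds. JARID2, which helps bring PRC2 to its targets, is the longest of the genes (chromosome 6, 15246069 to 15522042) and had 4 peaks in each list, 1.45 per 100 kb in both. None met a peak of the other list. The wild-type peaks had folds of 5.11, 12.5, 5.56 and 6.60 in order along the gene, on 32, 35, 26 and 31 IP reads. The strongest, at 15338816 to 15339119, was above 93.8% of the wild-type list. In the knockout the folds were 10.1, 10.2, 3.84 and 8.35. The highest of these was at 15354744 to 15354965, with 28 reads, and the lowest at 15496249 to 15496614, with 70 reads over a local input of 8. The last one, at 15520728 to 15520931, had its summit 1199 bp before the end of the gene, and its reads could not be recovered without ambiguity. In both lists, then, 2 summits lay upstream, within 39.4% of the length of JARID2, and 2 lay downstream, from 90.8% of it onward, at different places.

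AEBP2, a zinc finger partner found in the same form of PRC2 as JARID2, had the peaks with the most IP reads of any member (gene at chromosome 12, 19404072 to 19522227). The wild-type peak at 19439792 to 19440271 had 282 IP reads (250.04 to 317), and the knockout peak at 19439622 to 19440214 had 343 (308 to 381). The folds were nevertheless low, 2.73 and 3.85, against a local input of 62 in wild type and 42 in the knockout. They exceed only 1.12% and 4.99% of their lists. Per unit of IP depth, knockout over wild-type reads came to 1.04 (0.886 to 1.22), an interval that includes 1, and the summits were 14 bp apart. This peak lies within the RefSeq bounds but upstream of the start listed at 19440599, and its wild-type form ends 77 bases before the window shown above. AEBP2 had 1 further wild-type peak at 19507510 to 19507709, with a fold of 6.31 on 15 reads.

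MTF2 and PHF19 are Polycomb-like proteins of the alternative form of PRC2, which bind H3K36 methylation through a Tudor domain. MTF2 (chromosome 1, 93079283 to 93139076) had 3 wild-type and 2 knockout peaks. The shared one, at 93136584 to 93136783 in wild type and 93136644 to 93136857 in the knockout, had folds of 4.83 and 3.91 on 62 and 55 reads. Its depth-scaled ratio of 0.759 (0.518 to 1.11) had an interval that includes 1. The strongest MTF2 peak of either list lay upstream of it, at 93130849 to 93131195 in wild type (fold 7.95, 56 reads) and at 93131458 to 93131790 in the knockout (fold 12, 58 reads). These stand 262 bp apart and did not overlap. A further wild-type peak at 93114318 to 93114534 had a fold of 7.46 on 34 reads.

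PHF19 (chromosome 9, 120855651 to 120904128) is transcribed from the minus strand, and its only peak lay on the plus strand. That wild-type peak, at 120887463 to 120887662, had a fold of 8.09 on 14 IP reads (7.65 to 23.5), the fewest of any member. Its local input was 0.173, the most frequent of the low levels in the wild-type list on that strand. Counted on its own strand, PHF19 had 0 peaks in both lists.

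The PRC1 genes had peaks in both lists. BMI1 encodes a partner that stimulates the ubiquitin ligase, and at 10.6 kb it is the shortest member, with 3 wild-type peaks and 1 knockout peak. For so short a gene 1 peak already comes to 9.43 per 100 kb. Over the 9 members with a peak the medians were 2.06 wild-type and 1.56 knockout peaks per 100 kb, against 3.03 and 2.05 over coding genes with a peak in either list. The shared BMI1 peak lay near the start of the gene, at 22321209 to 22321408 in wild type and 22321241 to 22321450 in the knockout on chromosome 10, 60 bases beyond the window shown above. Its folds were 8.20 on 47 reads and 6.57 on 39 reads, and the depth-scaled ratio was 0.710 (0.452 to 1.11). The remaining wild-type peaks were downstream, at 22329140 to 22329339 (fold 6.87, 28 reads) and 22329573 to 22329789 (fold 4.21, 33 reads), and the knockout list held 0 there. All BMI1 peaks also lie within COMMD3-BMI1, whose transcripts run through BMI1, so the reads belong to either.

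RNF2, the RING-type ligase that ubiquitinates histone H2A, went the other way in number, with 2 wild-type and 4 knockout peaks (chromosome 1, 185045558 to 185102603). The pair at 185093002 to 185093278 and 185093070 to 185093269 had folds of 8.18 and 6.57 on 28 and 39 reads. Its depth-scaled ratio was 1.19 (0.715 to 2.01), again with 1 inside the interval. The other wild-type peak, at 185089404 to 185089704, had a fold of 8.09 on 25 reads. The knockout alone had peaks at 185066736 to 185066935, 185070965 to 185071176 and 185088105 to 185088331, with folds of 7.56, 9.01 and 9.37 on 20, 31 and 37 reads. These 3 lay upstream of both wild-type peaks.

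Side by side, the 5 shared peaks differed most at EED. The measures compared here are relative to the depth of each IP and cover only places called in both lists. They do not give the level of methylation left in the knockout. Scaled IP reads over local input on the log2 scale were 6.46 in wild type and 3.92 in the knockout there, a difference (knockout minus wild type) of -2.54, which 2.04% of all pairs fell below. Part of this EED difference comes from local input, a peak-caller estimate without an interval. The wild-type EED peak had 64 IP reads over 0.44, and its knockout partner 38 over 1.2. Unlike the fold, the measure adds no 1 to either term, so low local inputs weigh more in it. The folds of the pair were 27.7 and 8.73, and the depth-scaled ratio of IP reads alone was 0.508. For AEBP2 the log2 difference was 0.50, for MTF2 -0.29, for BMI1 -0.23 and for RNF2 -0.60. Across all 5798 pairs the median was 0.08 and the quartiles -0.65 and 0.81, so by this measure AEBP2, MTF2, BMI1 and RNF2 lay within the quartiles and EED below them. By the depth-scaled ratio of IP reads, with quartiles of 0.778 and 1.30 over all pairs, MTF2 (0.759) and BMI1 (0.710) lay below the lower quartile as well. EED was already known to rank among the strongest wild-type peaks when it was chosen, and whether that choice bears on the difference was not tested.

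**Figure D4:**
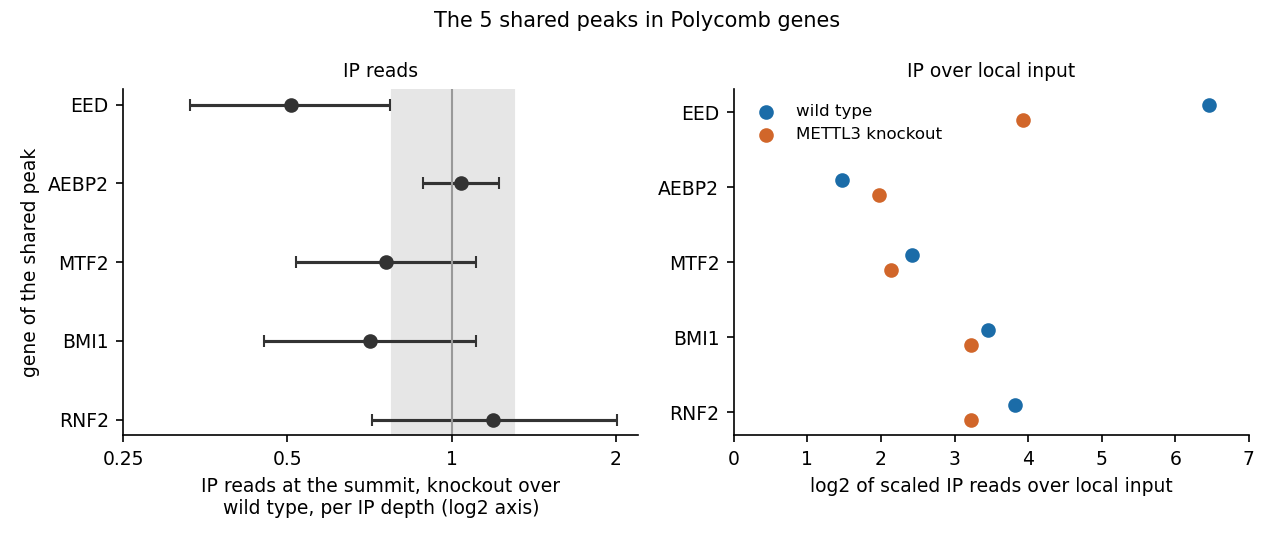
The 5 shared peaks by gene (y axes). The left panel gives IP reads at the summit in the knockout over wild type per unit of IP depth (log2 axis), with 95% exact intervals for counting error and the quartiles of all pairs (0.778 to 1.30) in grey, and the right panel the log2 of scaled IP reads over local input in each list. EED is the 1 pair whose interval lies below 1.

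**Figure D5:**
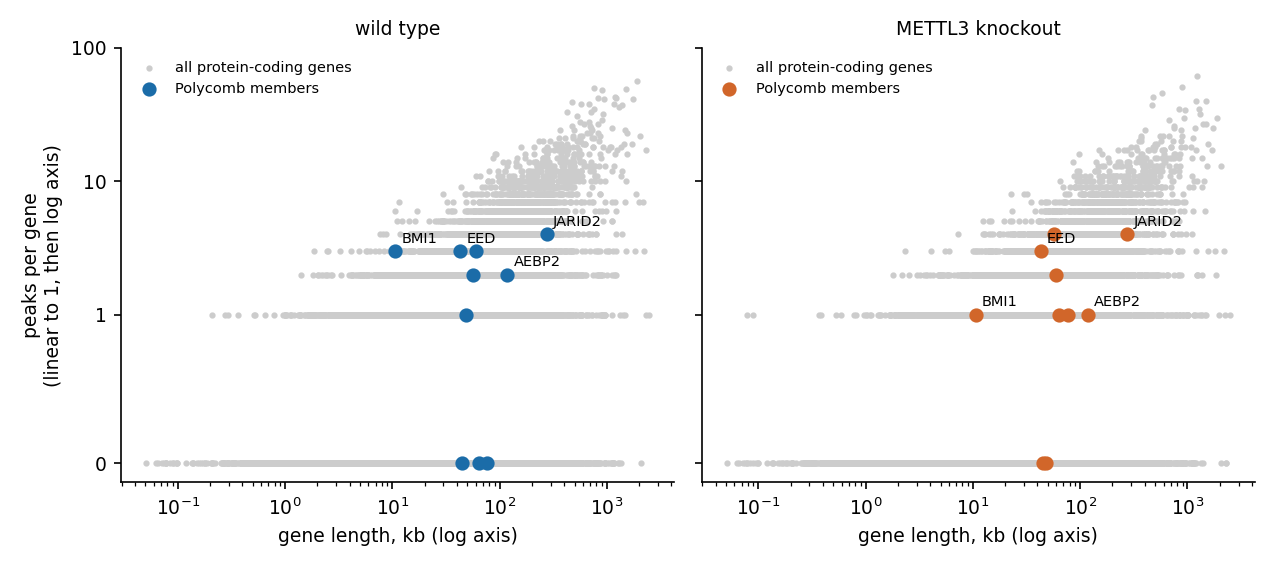
Peaks per gene (y axis, linear to 1 and then logarithmic) against gene length in kb (log axis) for the 10 members (coloured) and all 20056 protein-coding genes (grey), wild type on the left and the knockout on the right. The members hold 0 to 4 peaks in each list, with JARID2, the longest, at 4 in both.

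A further 58 Polycomb genes were counted the same way, without regard to strand. Of these 30 had peaks in both lists, 10 in wild type alone, 4 in the knockout alone and 14 in neither, and each list held 143 of their peaks. A partner was found for 37 of the 143 in either list (25.9%, 18.9 to 33.9), against 21.3% and 26.5% of coding-gene peaks. By number of peaks, 23 genes had more in wild type, 14 more in the knockout and 7 the same. The wild-type list is also the larger, with 29084 peaks against 23937. The strand of 50 of these genes is listed, and there 124 of 133 wild-type and 125 of 139 knockout peaks lay on it.

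Among the remaining PRC2 genes, the histone chaperones RBBP4 and RBBP7 had 0 peaks in both lists. LCOR, whose locus encodes a PRC2 accessory protein, had 7 wild-type and 8 knockout peaks with 5 pairs. LCORL, its paralogue, had 5 and 15 without a pair. Canonical PRC1 was led by SCMH1 (11 and 8 peaks, 3 pairs) and the polyhomeotic genes PHC2 (6 and 6, 2 pairs), PHC3 (3 and 3, 1 pair) and PHC1 (1 and 4, 1 pair, which lies opposite to the gene). RING1, the paralogue of RNF2, had 0 in both lists, and PCGF2, the paralogue of BMI1, had 2 wild-type peaks, both on the opposite strand.

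The noncanonical PRC1 genes with most peaks were AUTS2, a long gene (16 and 17, 1 pair), and MGA, which encodes a DNA-binding subunit (8 and 10, 4 pairs). YAF2 had 7 and 4 with 1 pair, KDM2B, a CpG-binding demethylase, 5 and 2 with 1 pair, which lies opposite to the gene, and BCORL1 3 and 5 with 2 pairs. PCGF3 held 3 and 1 with 1 pair, PCGF5 3 and 1 with none, and TFDP1 1 and 3 with 1 pair. MAX had 0 wild-type and 5 knockout peaks, 3 of them on its own strand, and FBRSL1 0 and 3, all on its own strand.

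The deubiquitinase module that removes the PRC1 mark had peaks chiefly in MBD5 (14 and 12, 2 pairs) and the ASXL genes. ASXL1 held 3 and 5 with 1 pair, ASXL2 6 and 5 with 2 and ASXL3 4 and 3 with 1, while the deubiquitinase gene BAP1 had 0 in both lists. FOXK2 had 0 and 2 peaks, with 1 of the knockout peaks on its own strand, and HCFC1 2 and 0. SFMBT2 (7 and 4, 1 pair) and YY1 (2 and 3, 1 pair) completed the named genes. On its own strand YY1 had 2 wild-type peaks and 1 knockout peak.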

How the data were processed

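Chromosome-associated RNA of 2 genotypes was assayed by m6A IP and input in 8 samples. Per the submitters' processing notes the build was hg38 and the tools were MACS2 2.2.7.1, HISAT2 2.2.1 and SAMtools 1.15.1, listed without settings. The sources used here do not say whether replicates were pooled before peak calling. Per the layout of the deposited lists, each peak has a position, a strand, a linear ratio (fold of IP over local input), a p-value and a q-value as −log10, a summit, and a deposited score that only displays the q-value and was not used.

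Python 3.11.15 was used with SciPy 1.17.1, numpy 2.4.6, pandas 2.3.3 and, for plots, matplotlib 3.10.9. Positions are 1-based. Gene bounds (GRCh38.p14) and strands came from RefSeq's gene and promoter tables. IP reads and local input were solved from fold, taken as (scaled IP + 1) / (local input + 1), and a Poisson p, with 1 IP read worth 0.607 and 0.479 on the plus strand in wild type and the knockout and 0.572 and 0.438 on the minus strand. A unique solution was found for 94.7% to 98.6% of peaks by list and strand. Total reads per library are not known. Tested on 2 simulated sets of 393 and 361 peaks, the method returned the IP reads of 100% and 99.2% of them. Those sets were made with the same formulas, and with fewer reads than the largest member peaks. The simulation therefore checks the solving step alone, not whether the deposited values follow the formulas. Shares have Clopper-Pearson intervals, reads exact Poisson intervals and ratios of reads exact conditional ones, each at 95%.

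The members and gene lists were chosen with earlier results of these data known. All members are named with every peak, and of the other Polycomb genes those with at least 3 peaks in a list, or at least 2 in 1 list alone. Genes named with 0 peaks were picked after their values were seen.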

Additional observations from a re-analysis of the deposited data

How the results depend on the processing

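Across 8 alternatives, 34 of 35 recomputed values stayed within the interval of the share or within 1.5 times the count. The fold at shared pairs was judged by equality, and no member peak had a choice of partners. Requiring −log10 q of at least 5 could change nothing, since every member peak already passed it. The interval of the share was wide (9.69 to 53.5 in wild type), so few settings could leave it. The count of 34 is therefore a weak check. The share of wild-type member peaks with a partner ranged from 22.2% with reciprocal overlap of 50% to 33.3% with partners within 200 bp, and that of knockout peaks from 23.5% to 35.3% under the same settings. The exception was the number of genes with wild-type peaks alone, which went from 1 to 0 on the gene's own strand, since the PHF19 peak lies opposite to its gene. No paired analysis was possible because neither list carries values per replicate, and for the same reason no replicate could be left out. Local input is the peak caller's estimate, so the intervals of IP reads leave its error out, and peaks of about 15 reads are the least certain.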

Other observations

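The readthrough gene COMMD3-BMI1 (chromosome 10, 22316388 to 22331484) held 4 wild-type peaks and 1 knockout peak, so its bounds add 1 wild-type peak outside BMI1. Pseudogene copies of members annotated elsewhere, namely EEDP1, BMI1P1, RNF2P1 and SUZ12P2, held 0 peaks in both lists.

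The share of G and C differed widely between the members' promoter windows. EED had the lowest value at 52.3% with 16 CpG, and the second BMI1 start the highest at 91% with 65 CpG. The median of all 35116 windows was 58.7% with 14 CpG. EED was also the member with a peak over its window, and no other member window was covered by a peak on the strand of its gene.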
